A study of Rattus norvegicus with 21 samples.

Results

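The genes described here encode the precursor and receptors through which angiotensin, aldosterone and catecholamines reach the heart. They are Agt (angiotensinogen), Agtr1a and Agtr2 (angiotensin II receptors), Nr3c2 (the mineralocorticoid receptor), Adrb1 (the beta-1 adrenergic receptor) and Adra1a (the alpha-1A adrenergic receptor). Members were chosen by gene name from a list of 8 genes, and 6 of the 8 had a row of that name among the 26597 genes of each table. No row is named Ace or Adra1b, so these genes were not analysed here. Total RNA of left ventricles from F-344/Brown Norway rats was sequenced after removal of ribosomal sequences. The females comprised 4 rats aged 9 months given the sodium acetate vehicle (control), 4 controls aged 24 months and 4 rats aged 24 months given relaxin (RLX). The males comprised 3 rats in each of the same conditions. RLX was given at 400 μg/kg/day and vehicle in the same way, both over 14 days by subcutaneous osmotic mini pump. Each library comes from 1 rat, and no genetic modification is named in the labels.

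In the renin-angiotensin system, enzymes cut angiotensinogen, which is made mostly in the liver, in steps that end in angiotensin II. Angiotensin II acts on the type 1 receptor to constrict vessels, release aldosterone and promote fibrosis, and the type 2 receptor often opposes these actions. Noradrenaline and adrenaline act on beta-1 receptors of cardiomyocytes to raise rate and contractile force through cyclic AMP, and on alpha-1 receptors through phospholipase C. RLX is a peptide hormone that dilates vessels and limits fibrosis.

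Total counts were 13619241 to 17861724 in the female libraries and 11997512 to 19027947 in the male libraries. All 6 markers of cardiomyocytes were detected in every group, and in CPM (counts scaled to library size) their sum ran from 21445 to 33951 in the female libraries, against 22569 to 31876 among males. The 4 red blood cell markers summed to 11176 CPM in 1 RLX-treated female and to 1400 CPM in 1 female control aged 24 months, while the female groups' medians were 3.46 to 24.8 CPM. The 4 atrial markers reached a sum of 457 CPM in 1 female control aged 24 months, against a median of 162 CPM in that group. In bulk tissue, fewer cells of a type and less RNA per cell cannot be told apart.

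The tables place Adrb1 on chromosome 1 (positions 284917872 to 284919272, plus strand) and Adra1a on chromosome 15 (48203098 to 48295045, minus strand). Agtr1a lies on chromosome 17 (37218834 to 37270540, minus strand). Nr3c2 (45289894 to 45639834) and Agt (68026228 to 68038550) both lie on the minus strand of chromosome 19. Agtr2 lies on the X chromosome (119534835 to 119538664, plus strand). These positions are those of the authors' tables, for which no genome build is named in the sources used here.

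All of these genes were weakly expressed. On the RPKM scale, which divides counts by gene length and library total, the mean level over the 21 libraries was highest for Adra1a (1.73, range 0.394 to 2.56). Nr3c2 followed at 1.30 RPKM (range 0.695 to 1.93), then Agtr1a at 0.881 RPKM (range 0.305 to 1.46) and Adrb1 at 0.609 RPKM (range 0.0996 to 1.49). Agt averaged 0.145 RPKM (range 0 to 0.748). The ranges of neighbours in this order overlapped in every case, but ranges do not compare 2 genes within the same library. In most libraries Adra1a lay above Nr3c2. It lay below in male control rat 12 (0.394 against 0.695 RPKM) and in the female 9-month control rat 3 (0.997 against 1.16 RPKM). The order of the members within libraries was not tested. Agtr2 was at the bottom, with 1 count in 1 of 21 libraries and 0 counts in the other 20. By counting error alone, a library with 0 counts is compatible with an expected count of up to about 3. At the depths of these libraries, 3 counts are 0.158 to 0.250 CPM. This bounds the level in single libraries and is not a detection limit, as the single count was 0.0581 CPM.

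**Figure D1:**
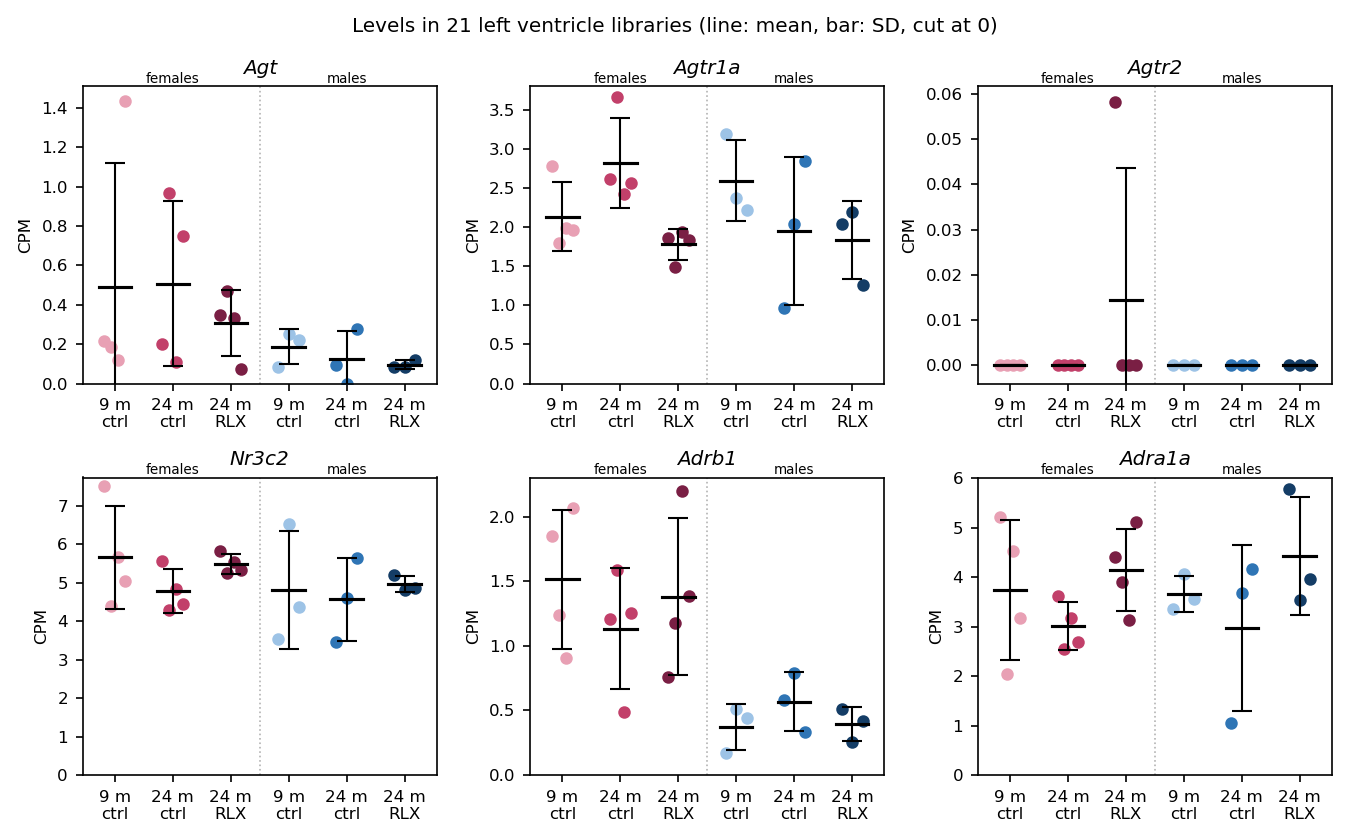
CPM (vertical axis) of the 6 genes in each of 21 left ventricle libraries, by group along the horizontal axis, with females left and males right of the dotted line. Points are rats, the thick line is the group mean and the bar is the SD, cut at 0. Females span 0.484 to 2.20 CPM in Adrb1 and males 0.172 to 0.789 CPM, Agtr1a was lower in every RLX-treated female than in any female control aged 24 months, and Agtr2 had 1 count in 1 library.

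None of the 6 genes passed edgeR's quasi-likelihood test at a false discovery rate of 0.05 in any of the 6 comparisons of groups within a sex. With aging in females (controls aged 24 against 9 months), 0 of the 4 members tested passed, where 5.35% of all genes tested did. With RLX in females (24 months, RLX against control), 0 of 4 members passed and 0.0% of all genes did. With aging and with RLX in males, 0 of 3 members passed and 0.0% of all genes did in each. RLX-treated females against 9-month controls gave 0 of 4 members and 0.00796% of all genes, and the same comparison in males gave 0 of 3 members and 0.0% of all genes. At an unadjusted p under 0.05, 2 of the 4 members stood apart with RLX in females (Agtr1a lower and Adra1a higher, where 14.1% of all genes did), and none did in the other 5 comparisons. In those, the share of all genes under that p was 21.2% with aging in females, 8.55% with aging in males and 12.0% with RLX in males, and 11.4% and 16.0% for RLX-treated females and males against 9-month controls. DESeq2 also called no member in these 6 comparisons, but it gave no adjusted p for Agtr1a, Adra1a and Adrb1 with RLX in females. Agt and Agtr2 did not pass the filter on low counts within either sex, and Adrb1 did not pass it in males.

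Agt was detected at a trace level. In female 9-month controls it had 4, 3, 2 and 27 counts (rats 1, 3, 4 and 5), so a single rat held most of the group's counts. Female controls aged 24 months had 3, 14, 2 and 12 counts (rats 2, 4, 5 and 6), and RLX-treated females had 6, 6, 5 and 1 counts (rats 1, 2, 4 and 6). The 3 female groups overlapped widely. The 9 male libraries held 0 to 5 counts each and 17 in all. The mean level was 0.434 ± 0.416 CPM (SD, n = 12) in females and 0.136 ± 0.0934 CPM (SD, n = 9) in males, and 6 of 12 females lay above every male.

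Agtr1a, the receptor through which angiotensin II constricts vessels and which cardiac fibroblasts and vascular smooth muscle cells make, was the member that stood furthest apart with RLX in females. In female controls aged 24 months Agtr1a was 2.61, 3.67, 2.42 and 2.57 CPM (rats 2, 4, 5 and 6). In RLX-treated females of the same age it was 1.86, 1.49, 1.93 and 1.83 CPM (rats 1, 2, 4 and 6). Every treated rat lay below every control. The mean was 1.78 ± 0.199 CPM (SD, n = 4) with RLX and 2.82 ± 0.571 CPM (SD, n = 4) in controls. The fold change was 0.628 (95% interval 0.455 to 0.869), or a log2 fold change of -0.67 with a standard error of 0.22. The unadjusted p was 0.00868 in edgeR's test and the adjusted p was 0.212, so the difference failed the correction over all genes. An exact 2-sided permutation test of log2 CPM for Agtr1a alone gave p = 0.0286, the smallest that 4 against 4 rats can give. Groups did not overlap in 8.0% of all genes tested in this comparison, and in 3.7% they did so with RLX lower. Leaving out each rat in turn moved the log2 fold change between -0.74 and -0.52, and the adjusted p over all alternatives ran from 0.154 to 0.420.

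Female 9-month controls had Agtr1a at 2.78, 1.80, 1.99 and 1.96 CPM (rats 1, 3, 4 and 5). One of the 4 young rats lay within the range of the older controls and the other 3 lay below it. The log2 fold change with aging in females was 0.41 (95% interval -0.08 to 0.89), with an adjusted p of 0.315 in edgeR. RLX-treated rats against 9-month controls gave -0.26 (95% interval -0.72 to 0.21, adjusted p 0.685).

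In males Agtr1a was 3.18, 2.37 and 2.22 CPM in 9-month controls (rats 3, 2 and 4). It was 0.962, 2.04 and 2.84 CPM in controls aged 24 months (rats 12, 8 and 11) and 2.04, 2.19 and 1.26 CPM with RLX (rats 2, 3 and 7). The treated males lay within the range of the older controls, in which rat 12 was the lowest of all 21 libraries. The log2 fold change with RLX in males was -0.11 (95% interval -1.04 to 0.82, adjusted p 0.938 in edgeR), and it was -0.39 without control rat 12 and 0.26 without control rat 11. The 3 RLX-treated males did not overlap with the 3 male 9-month controls (log2 fold change -0.51, 95% interval -1.27 to 0.25, adjusted p 0.477), which 22.7% of all genes also did. The effect of RLX on Agtr1a differed between females and males by -0.51 on the log2 scale (95% interval -1.36 to 0.34, adjusted p 0.625), and the effect of aging by 0.77 (95% interval -0.05 to 1.60, adjusted p 0.272), so neither interaction passed. None of the 5 members tested passed for either interaction, where 0.0% of all genes passed for RLX and 4.3% for aging.

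**Figure D2:**
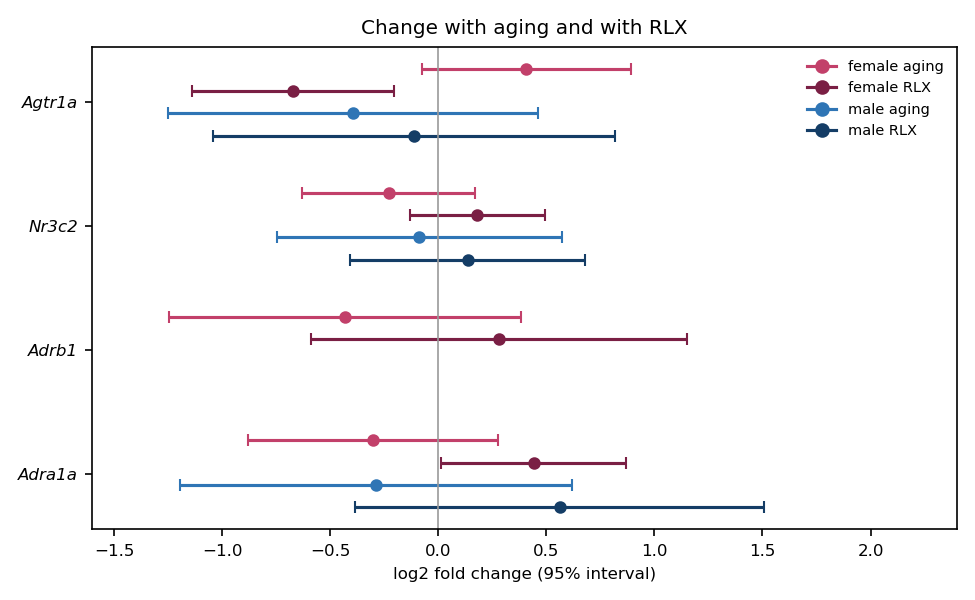
Log2 fold change (horizontal axis) of the 4 members tested, with 95% intervals from edgeR, for aging (24-month against 9-month controls) and RLX (treated against control, 24 months) in each sex. Adrb1 was not tested in males. The intervals of Agtr1a (-1.14 to -0.20) and Adra1a (0.01 to 0.87) with RLX in females do not include 0, before correction over all genes.

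Fibroblast markers moved with Agtr1a in females. The 6 markers (Pdgfra, Col1a1, Dcn, Tcf21, Lum and Dpt) summed to 2936 to 3878 CPM in female controls aged 24 months, to 2057 to 2624 CPM with RLX and to 1901 to 2390 CPM in 9-month controls. All 6 had a negative log2 fold change with RLX in females (median -0.49), none of them past the test, and all 6 a positive one with aging (median 0.59), 3 of them past the test. In males the sums were 2613 to 5091 CPM in 9-month controls, 2978 to 3767 CPM in controls aged 24 months and 2606 to 4057 CPM with RLX. With RLX in males, 5 of the 6 markers had a positive log2 fold change (median 0.16), while Agtr1a had -0.11. With aging in males all 6 had a negative one (median -0.29), as Agtr1a had (-0.40). None of the 6 passed the test in males. Across 21 libraries, with each sex's mean removed, log2 CPM of Agtr1a correlated with the mean log2 CPM of the fibroblast list at r = 0.68, and at 0.70 in the 12 females and 0.68 in the 9 males alone. These points share library depth and composition, and group means were not removed, so differences with age and RLX enter r. The part of fibroblast RNA in the difference of Agtr1a was not tested. The genes whose levels followed Agtr1a most closely over the 21 libraries were Slco2b1, an organic anion transporter (r = 0.89), Tpst1, a tyrosine sulfotransferase (r = 0.83), and Capn2, a calpain protease (r = 0.82), out of 10341 genes compared.

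**Figure D3:**
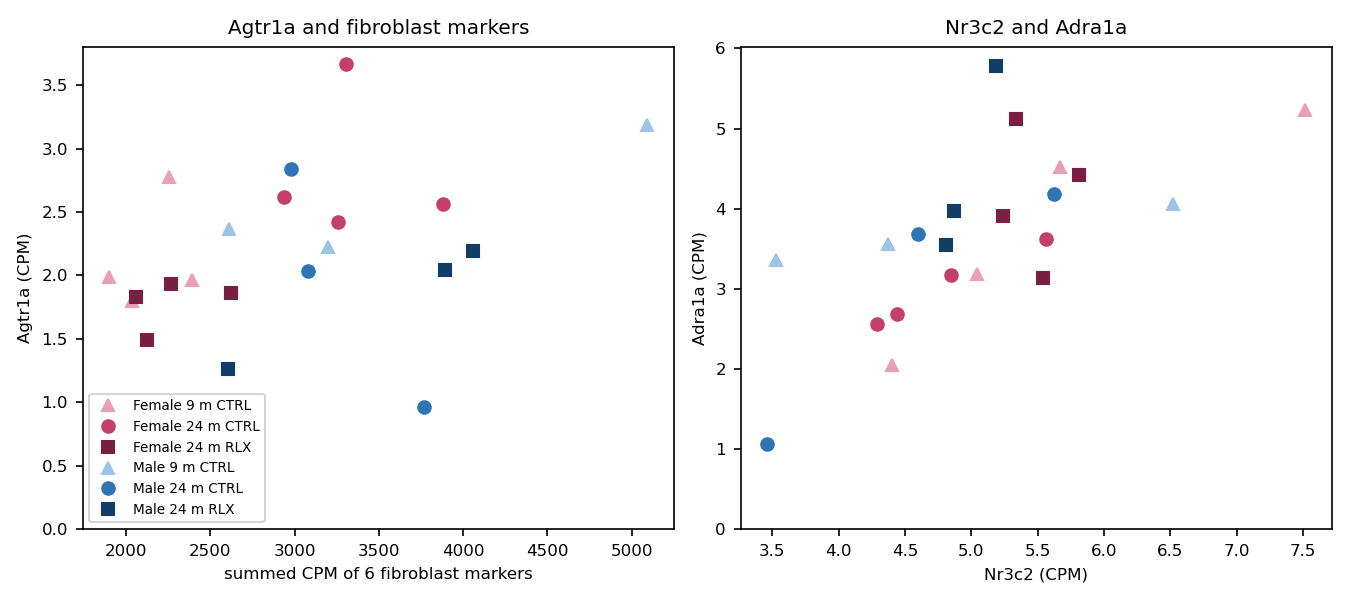
Left, Agtr1a (CPM, vertical axis) against the summed CPM of 6 fibroblast markers (horizontal axis) in 21 libraries. Right, Adra1a against Nr3c2, both in CPM. Each point is a rat and its shape and shade give the group. RLX-treated females (dark red squares) lie at the lower left of the left plot, apart from the female controls aged 24 months (red circles), and male control rat 12 lies lowest in Agtr1a (0.962 CPM) and in Adra1a (1.06 CPM).

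Nr3c2, the receptor that binds aldosterone and, in cells that do not inactivate them, glucocorticoids, had the smallest standard error of the members tested in each of the 6 comparisons (0.14 to 0.30 on the log2 scale). It ranged from 4.40 to 7.51 CPM in female 9-month controls, from 4.29 to 5.56 CPM in female controls aged 24 months and from 5.24 to 5.81 CPM in RLX-treated females. These 3 ranges overlapped. In males it ranged from 3.53 to 6.52 CPM at 9 months, from 3.46 to 5.63 CPM in controls aged 24 months and from 4.81 to 5.19 CPM with RLX. The log2 fold change in females was -0.23 with aging (95% interval -0.63 to 0.17, adjusted p 0.513 in edgeR) and 0.18 with RLX (95% interval -0.13 to 0.49, adjusted p 0.603). In males it was -0.09 with aging (95% interval -0.75 to 0.57) and 0.14 with RLX (95% interval -0.41 to 0.68). As fold changes, the intervals in females were 0.646 to 1.13 with aging and 0.912 to 1.41 with RLX.

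Adrb1, the main target of beta blockers, differed between the sexes. In females Adrb1 was 1.85, 1.24, 0.905 and 2.07 CPM in 9-month controls (rats 1, 3, 4 and 5). It was 1.21, 1.59, 0.484 and 1.25 CPM in controls aged 24 months (rats 2, 4, 5 and 6) and 0.755, 1.17, 2.20 and 1.39 CPM with RLX (rats 1, 2, 4 and 6). The 3 female groups overlapped, and the highest of these values belongs to the RLX-treated rat that is also high in red blood cell markers. In males Adrb1 was 0.172, 0.508 and 0.444 CPM in 9-month controls (rats 3, 2 and 4), 0.577, 0.789 and 0.334 CPM in controls aged 24 months (rats 12, 8 and 11) and 0.510, 0.253 and 0.421 CPM with RLX (rats 2, 3 and 7). In counts, these are 9 to 39 per female library and 2 to 12 per male library. Of the 12 females, 10 lay above every male, and the exceptions were the control rat 5 aged 24 months and the treated rat 1.

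The mean of Adrb1 was 1.34 ± 0.516 CPM (SD, n = 12) in females and 0.445 ± 0.183 CPM (SD, n = 9) in males. In 1 fit over all 21 libraries, Adrb1 was 2.99-fold higher in females over the 3 conditions (95% interval 1.99 to 4.51), a log2 difference of 1.58 with a standard error of 0.28 and an adjusted p of 0.000387 in edgeR. Of the 5 members tested in that fit, Adrb1 alone passed, beside 25.9% of all genes (13.1% higher in females). By condition, chosen after the data were examined, the log2 difference was 1.98 in 9-month controls (adjusted p 0.0178), 1.00 in controls aged 24 months (adjusted p 0.182) and 1.77 with RLX (adjusted p 0.0209), against 9.53%, 9.06% and 14.4% of all genes called. Females and males did not overlap at 9 months or with RLX, where 10.8% and 15.2% of all genes did not overlap with females higher. The adjusted p stayed between 0.00014 and 0.00131 when each library was left out in turn. Per the study's methods, libraries of females and of males were loaded on the sequencer at different concentrations, and the column headers number the libraries of each sex in a series of its own. A difference in sequencing between the sexes cannot be told apart from sex.

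Within females, Adrb1 gave a log2 fold change of -0.43 with aging (95% interval -1.25 to 0.38, adjusted p 0.546 in edgeR) and of 0.28 with RLX (95% interval -0.59 to 1.15, adjusted p 0.796). The interactions with sex were -0.98 for aging (95% interval -2.45 to 0.48) and 0.77 for RLX (95% interval -0.68 to 2.23), with adjusted p of 0.463 and 0.676. The genes that followed Adrb1 most closely within the sexes were Adamts1 (r = 0.71), Tmem238 (r = 0.71) and Zcchc3 (r = 0.70), over 21 libraries and at the few counts given above.

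Agt showed a difference of similar size between the sexes that did not pass. The log2 difference was 1.58 with females higher (95% interval 0.35 to 2.80), with an adjusted p of 0.0535 in edgeR and of 0.0352 in DESeq2. The call depends on single rats: leaving out 1 rat at a time gave adjusted p from 0.0300 to 0.0936. Of the marker lists, Agt had its highest r with the fat cell list (0.61) and the mast cell list (0.56). In the female 9-month control rat 5, which held 27 Agt counts, the mean log2 CPM of the fat cell list was 4.44, the highest of its group. Between the sexes, 4 of 5 fat cell markers were higher in females, 1 of them past the test, and 1 of 5 mast cell markers was higher. The part of these cells in Agt was not tested. The other 3 members tested did not pass, with log2 differences (females minus males) of 0.06 for Agtr1a (95% interval -0.28 to 0.40), 0.14 for Nr3c2 (-0.11 to 0.39) and -0.03 for Adra1a (-0.42 to 0.36). The direction for Agtr1a and Adra1a changed between conditions.

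Adra1a, an alpha-1 receptor, had the highest mean RPKM of the members. In females Adra1a was 5.23, 2.05, 4.52 and 3.18 CPM in 9-month controls (rats 1, 3, 4 and 5). It was 3.62, 2.56, 3.18 and 2.69 CPM in controls aged 24 months (rats 2, 4, 5 and 6) and 4.41, 3.91, 3.14 and 5.12 CPM with RLX (rats 1, 2, 4 and 6). Of the 4 treated rats, 3 lay above every control of the same age, and rat 4 lay within the controls' range. The log2 fold change with RLX in females was 0.44 with a standard error of 0.20 (fold change 1.36, 95% interval 1.01 to 1.83), with an unadjusted p of 0.0442 and an adjusted p of 0.343 in edgeR. The exact permutation p was 0.0857. With aging in females it was -0.30 (95% interval -0.88 to 0.27, adjusted p 0.552).

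The 6 cardiomyocyte markers summed to 26684 to 31796 CPM in RLX-treated females, to 21445 to 26385 CPM in their controls and to 28385 to 33951 CPM in 9-month controls. Their median log2 fold change with RLX in females was 0.34, with all 6 positive and none past the test. Their part in the values of Adra1a was not tested.

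In males Adra1a was 3.35, 4.06 and 3.56 CPM in 9-month controls (rats 3, 2 and 4), 1.06, 3.68 and 4.18 CPM in controls aged 24 months (rats 12, 8 and 11) and 5.78, 3.54 and 3.97 CPM with RLX (rats 2, 3 and 7). The single low value of control rat 12 sets the spread of its group. The log2 fold change with RLX in males was 0.56 (95% interval -0.39 to 1.51, adjusted p 0.622 in edgeR) and 0.21 without rat 12. With aging in males it was -0.29 (95% interval -1.19 to 0.62) and 0.08 without that rat. The same rat was the lowest male in Agtr1a and Nr3c2.

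Nr3c2 and Adra1a varied together over the libraries. With each sex's mean removed, their log2 CPM correlated at r = 0.73 over 21 libraries and at 0.69 without male control rat 12. The r was 0.82 in the 12 females and 0.67 in the 9 males. Group means were not removed, so differences with age and RLX enter r as well as those between rats of a group. The next highest r among the 5 members compared was 0.32, between Agtr1a and Adra1a, and without male control rat 12 that pair had r = -0.197. Of the marker lists, Nr3c2 had its r of largest size with the Schwann cell list (r = -0.66, inverse) and the cardiomyocyte list (r = 0.53). The Schwann cell markers were low, with sums of 4.82 to 20.4 CPM per library. Adra1a followed the endothelial list (r = 0.47) most closely, with r = -0.40 for the Schwann cell list and 0.33 for the cardiomyocyte list. The points share library depth and composition. The genes closest to Adra1a were Nfib, a transcription factor (r = 0.94), Dag1, which encodes dystroglycan (r = 0.94), and Ssh2, a cofilin phosphatase (r = 0.93). Those closest to Nr3c2 were Cog6, of a Golgi complex (r = 0.89), Tctn2, of the ciliary transition zone (r = 0.88), and Kcnj12, an inward rectifier potassium channel (r = 0.85). Those closest to Agt, at its few counts, were Aar2 (r = 0.76), Grifin (r = 0.72) and Ifi35 (r = 0.71).

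The rest of the pathway was described with lists of genes. Several genes that would complete a local system were near or at 0. Cyp11b2, the aldosterone synthase, was at 0 in all 21 libraries. Agtr1b, the other rodent type 1 receptor gene, was at 0 in 16 libraries and reached 7 counts at most. Th, the first enzyme of catecholamine synthesis, was at 0 in 17 libraries.

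With aging in females, 4 of the list genes reported here passed the test, where 5.35% of all genes did. Among 11 other renin-angiotensin genes tested, Prcp, a carboxypeptidase that can turn angiotensin II into angiotensin-(1-7), rose and 10 did not pass (median log2 fold change of the list 0.19, against 0.00 over all genes). Prcp was 9.13 ± 0.682 CPM at 9 months and 14.2 ± 1.34 CPM at 24 months (SD, n = 4 each), a log2 fold change of 0.65 with a standard error of 0.11 and an adjusted p of 0.0105. Among 9 genes of catecholamine synthesis, transport and breakdown, Ddc, the decarboxylase that forms dopamine, fell (list median -0.02). Ddc was 38.0 ± 6.53 CPM at 9 months and 22.4 ± 1.42 CPM at 24 months, a log2 fold change of -0.74 (adjusted p 0.00975).

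Of 15 genes of G proteins and receptor kinases, Arrb2, a beta-arrestin that uncouples receptors, rose with aging in females (14.8 ± 1.51 to 22.0 ± 4.68 CPM, log2 fold change 0.59, adjusted p 0.0489 in edgeR; list median 0.03). Of 19 effectors of cyclic AMP and phospholipase C, Camk2d, the main calcium/calmodulin-dependent kinase of the heart, fell (107 ± 14.5 to 74.8 ± 4.73 CPM, log2 fold change -0.51, adjusted p 0.0231), and 16 of the 19 had a negative value (list median -0.23). Prcp and Ddc passed whichever female was left out. Arrb2 passed only without the 24-month control rat 5 (adjusted p 0.0178 to 0.150 over the 8 fits). Camk2d did not pass without the 9-month rat 1 or 4 or the 24-month control rat 4 or 6 (0.0523 to 0.0785). None of the 7 corticosteroid genes, the 2 kinin genes or the other adrenergic receptors tested passed. The smallest p in these lists belonged to Hsd11b1, which regenerates active glucocorticoid (0.46 with aging in females, adjusted p 0.0857), to Xpnpep2, an aminopeptidase that degrades kinins (0.37, adjusted p 0.189), and to Adra1d, the alpha-1D receptor (-0.88 in RLX-treated females against 9-month controls, adjusted p 0.300). Macrophage markers moved with age in the same females, from 187 to 238 CPM summed over 5 markers at 9 months to 300 to 363 CPM at 24 months, with all 5 past the test. T cell markers rose from 14.7 to 17.7 CPM summed to 26.2 to 38.0 CPM, with 3 of 5 past the test. Fibroblast markers were higher as given above. The 6 cardiomyocyte markers all had a negative log2 fold change with aging in females (median -0.32), 1 of them past the test, beside the negative values of the effectors of cyclic AMP and phospholipase C. The part of these cells in the list genes was not tested.

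**Figure D4:**
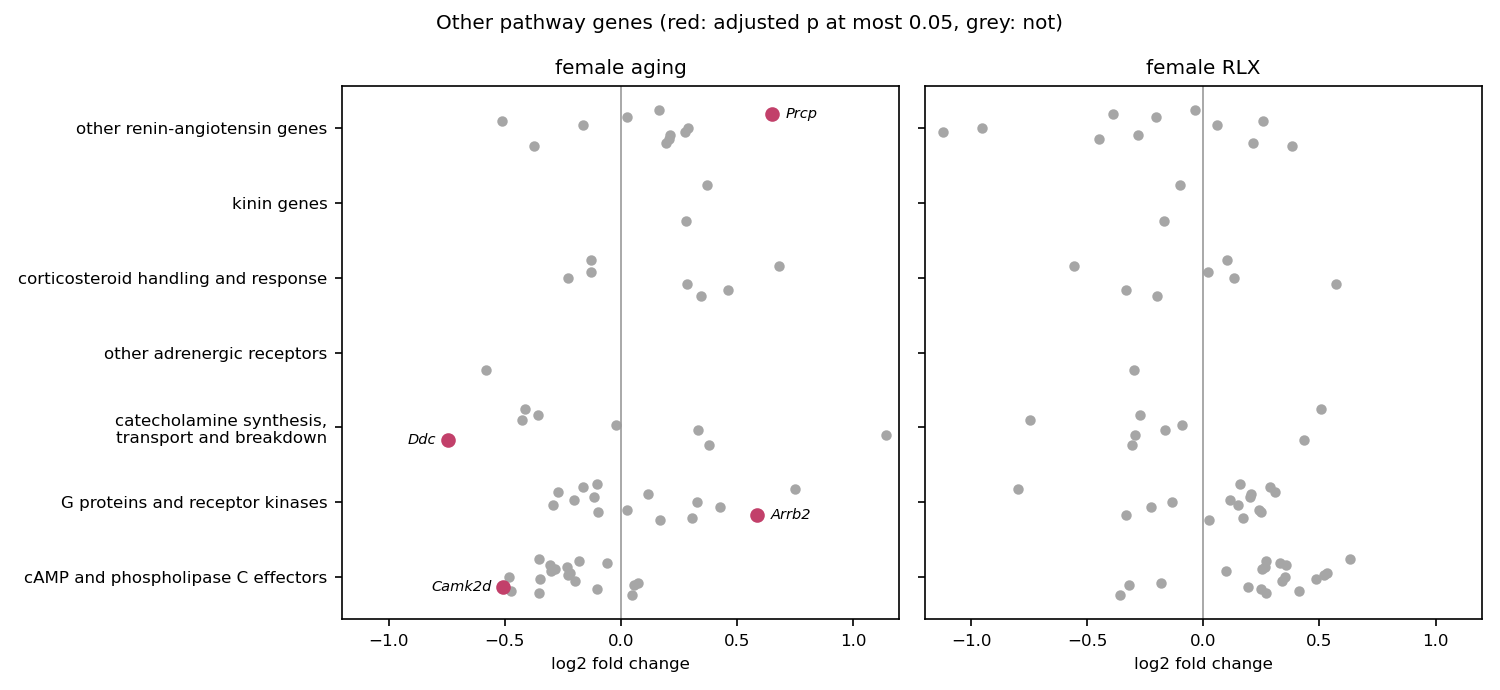
Log2 fold change (horizontal axis) of tested genes from 7 pathway lists (rows; a few genes are left out) with aging in females (left) and with RLX in females (right), where the comparisons share the 24-month controls. Red points passed edgeR's test at an adjusted p of 0.05 and grey points did not. The 4 red points, all on the left, are Prcp, Ddc, Arrb2 and Camk2d.

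With RLX in females, no list gene passed. Of the 19 effectors of cyclic AMP and phospholipase C, 16 had a positive value (list median 0.27, against -0.01 over all genes), and 10 were higher and 1 lower at an unadjusted p under 0.05, where 6.27% and 7.81% of all genes were. Of the 11 other renin-angiotensin genes, 4 were lower at that level and none was higher (list median -0.21). Markers of several other cell types were also lower with RLX in females, none of them past the test. The log2 fold change was negative for all 5 macrophage markers (median -0.47), all 5 T cell markers (median -0.85) and 4 of 5 mast cell markers (median -0.70), and 2 of these markers, Cma1 (a chymase) and Cpa3 (a carboxypeptidase), stand in the renin-angiotensin list too. Their sums with RLX were 194 to 328 CPM, 10.5 to 30.4 CPM and 6.00 to 14.5 CPM, against 300 to 363 CPM, 26.2 to 38.0 CPM and 10.1 to 15.3 CPM in controls. All 6 cardiomyocyte markers had a positive value (median 0.34), as most of the effectors did. The part of these cells in the list genes was not tested. Prcp was 11.0 ± 1.08 CPM with RLX (log2 fold change -0.39, adjusted p 0.195 in edgeR). Ddc was 30.7 ± 3.57 CPM with RLX (log2 fold change 0.44, adjusted p 0.132 in edgeR and 0.0203 in DESeq2, with 0.151 to 0.247 in edgeR when each library was left out). No list gene passed in the male comparisons or in RLX-treated females against 9-month controls.

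The change with age differed between females and males for 3 list genes. They were 1 of 11 other renin-angiotensin genes, 1 of 9 catecholamine genes and 1 of 19 effectors. None passed in the other lists, and 4.3% of all genes passed. The difference, females minus males, was 1.03 for Prcp (95% interval 0.47 to 1.59, adjusted p 0.0326 in edgeR), -1.14 for Ddc (-1.59 to -0.68, adjusted p 0.00772) and -0.83 for Camk2d (-1.18 to -0.49, adjusted p 0.00896). In males the log2 fold changes with age were -0.41 for Prcp, 0.37 for Ddc and 0.30 for Camk2d, none past the test. The interaction for Ddc and Camk2d passed whichever library was left out, and that for Prcp had adjusted p from 0.00306 to 0.0904. Between the sexes over the 3 conditions, Adra1d was higher in females (1.96 against 0.761 CPM, log2 difference 1.41, adjusted p 0.000321), as Adrb1 was. Hsd11b1 was lower in females (62.0 against 108 CPM, log2 difference -0.82, adjusted p 4.32e-05), as was Arrb2 (-0.34, adjusted p 0.00794). In their lists 1 of 2, 2 of 7 and 2 of 15 genes passed, where 25.9% of all genes did. By condition, chosen after the data were examined, Adra1d did not pass at 9 months (adjusted p 0.0635 in edgeR). Hsd11b1 did not pass in the 24-month controls (0.0936), nor did Arrb2 there (0.957) or with RLX (0.184).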

How the data were processed

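Left ventricle RNA of 21 rats was analysed. The authors prepared stranded total RNA libraries, mapped paired-end reads to the rat genome (no build is named in the sources used here). The deposited counts are whole, unnormalized reads per gene in 4 tables. The deposited RPKM scale these by gene length and depth. The 56 per-sample columns of CPM and TPM, and the authors' own comparisons, were not used. Where a library stands in several tables its counts were identical (0 values differed over 14 shared columns).

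Counts were tested in R 4.3.3 with edgeR 4.0.16 (filterByExpr, TMM factors, robust quasi-likelihood F test, Benjamini-Hochberg adjustment over all genes tested) in the 2 groups of each comparison. Sex and its interactions were fitted over 21 libraries. The CPM printed here were computed from the counts with TMM factors, and log2 CPM used a prior count of 2. Intervals are 95% and the standard error is the size of the log2 fold change divided by the square root of F. Single values were tested by exact 2-sided permutation, where 3 against 3 rats cannot go below 0.1. Alternatives were DESeq2 1.42.0, RLE factors, the exact test, voom with quality weights (limma 3.58.1), no filter, 3 groups in 1 fit, the study's limits (1.5-fold and 1 RPKM), the rat number as a block, and each library left out. The fits were first tested on simulated counts.

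The members, the lists and their tests were chosen with earlier results of these data known. Named are all members, list genes past the test in any comparison of groups within a sex (otherwise the smallest p of the list) and the 3 genes most correlated with each member. Cyp11b2, Agtr1b and Th were chosen after their values were seen. A few list genes are left out of the text and the plots, though list sizes and medians include them. Lnpep, Kng1, Nr3c1, Cyp11b1, Gnas, Grk3 and the marker Acta2 had no row of that exact name and were not used here. The rat numbers do not pair the groups (correlations of same-numbered rats from -0.189 to 0.394). Counting intervals cover counting error only.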

Additional observations from a re-analysis of the deposited data

Results flagged for a closer look

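Within groups of 4 females, 1 rat lay far from the rest in 3 of the 16 sets of values examined, given below. Chance gives this in about 1 in 20 sets of normally distributed values, which the few counts of Agt and Agtr2 need not be. Agt was 1.43 CPM in the 9-month control rat 5, above 0.218 CPM or less in the other 3. Agtr1a was 3.67 CPM in the 24-month control rat 4, against 2.42 to 2.61 CPM in the others, and without that rat the log2 fold change with RLX in females was -0.52. Agtr2 was 0.0581 CPM in the RLX-treated rat 1, a single count, with 0 in the other 3, and a lone value above 0 always stands apart in this way.

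The change with age differed between females and males by an interaction test for Prcp (1.03 on the log2 scale, females minus males), Camk2d (-0.83) and Ddc (-1.14). Of all genes, 4.3% passed that test.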

How the results depend on the processing

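The count of members past the test stayed at 0 in the 6 comparisons within a sex and in both interactions under every alternative run. For the sexes it was 1, but 2 with DESeq2 (Adrb1 and Agt), 0 when only the 24-month controls were compared (chosen after the data were examined) and 1 to 2 when each library was left out. Of the members' log2 fold changes over alternatives, 619 kept their direction and call, 8 gained a call (all of them Agt between the sexes), 1 lost it (Adrb1 between the sexes in the 24-month controls) and 44 changed direction, none of these past the test.

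Leaving out single libraries changed the direction of these log2 values. With RLX in males Agtr1a ran from -0.39 to 0.26 and Nr3c2 from -0.0053 to 0.31. With aging in males Adra1a ran from -0.59 to 0.080 and Nr3c2 from -0.26 to 0.19, and Nr3c2 in RLX-treated males against 9 months from -0.13 to 0.35. In females Adrb1 ran from -0.055 to 0.50 with RLX, and against 9 months Adrb1 ran from -0.48 to 0.072, Adra1a from -0.052 to 0.35 and Nr3c2 from -0.14 to 0.12. The interaction with age ran from -0.40 to 0.26 for Adra1a, -0.11 to 2.03 for Agt and -0.45 to 0.0052 for Nr3c2. The interaction with RLX ran from -0.39 to 0.27 for Adra1a, -1.85 to 0.29 for Agt and -0.098 to 0.23 for Nr3c2. Between the sexes Adra1a ran from -0.14 to 0.077 and Agtr1a from -0.026 to 0.19. Agt passed the low-count filter in 18 of the 21 fits. With voom, the interaction of Adra1a with RLX was 0.00888. Within single conditions (chosen after the data were examined), the sex difference was -0.28 for Agtr1a and 0.026 for Adra1a at 9 months, -0.023 for Agtr1a with RLX, and 0.11 for Prcp and 0.019 for Arrb2 in the 24-month controls. With DESeq2 Hsd11b1 passed with aging in females (0.46, adjusted p 0.0436).

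The rat numbers do not pair the groups, and the fit with the rat number as a replicate block changed no call of a member. It gave -0.76 for Agtr1a with RLX in females (adjusted p 0.206), and in RLX-treated females against 9 months 0.029 for Adrb1 and -0.37 for Adra1a. With the block, adjusted p of the 4 list genes with aging in females were 0.562 to 0.862. No block could be fitted for aging or RLX in males, which share no rat numbers.

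Depth limits Agt, Agtr2 and Adrb1 most, with 0 to 39 counts per library. With 3 or 4 rats per group, the intervals of the members span changes that these data cannot tell from 0. The groups of females and males differ in n. The causes of the changes above were not tested.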
